A study of Kluyveromyces lactis with 8 samples.

Results

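Ribosome biogenesis factors are the proteins and enzymes that build ribosomes without staying in them. In budding yeasts RNA polymerase I makes a long precursor rRNA in the nucleolus. Early factors gather on it as the small subunit processome, large subunit factors assemble around its downstream part, and helicases, methyltransferases and nucleases fold, modify and trim the intermediates. In Saccharomyces cerevisiae, from which the roles given here are known, the genes of these factors are transcribed together as one of the most growth-linked regulons. Here the transcripts of 74 such genes were followed in the milk yeast Kluyveromyces lactis. They are the genes whose RefSeq symbol (assembly ASM251v1) is RRP, UTP, NOP, NOC, DBP, NSA, RPF or SPB followed by a digit, or is IMP3, IMP4, MAK5 or DIM1, out of 5076 genes measured. By role they divide into 31 small subunit factors, 28 large subunit factors, 6 factors shared by both subunits or belonging to snoRNPs (RNA-guided modification particles), 7 subunits or cofactors of the RNA exosome, and 2 others, DBP5 and NOP13.

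RNA came from 4 strains, each read in 2 libraries that the series design calls technical replicates: WT (strain LRY2835, carrying SIR2), sir2∆ (LRY2850), sir4∆ (LRY3096) and sum1∆ (LRY3098). All were MATa with both silent mating cassettes deleted (hmr∆ hml∆), and were collected in early log phase after growing in YPD at 30 °C from an OD of 0.3 to 1. SIR2 encodes an NAD-dependent deacetylase, SIR4 a silencing protein and SUM1 a DNA-binding repressor. Each genotype is represented by 1 strain, and p-values cover only the spread between its libraries, not that between cultures.

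Levels are in FPKM, which divides fragments by gene length and library size, so they can be compared between genes of unequal length. They are shares of the sequenced RNA, and a gain of these transcripts cannot be told apart from a loss of others. Estimated depth was 10.1 to 26.3 M reads per library, and no member had fewer than 40.2 reads in any library. SUM1 was listed at 0 FPKM in both sum1∆ libraries and at 22.1 to 59.8 FPKM in the other 6. The sir4∆ label was not checked in this way, because no gene carries the symbol SIR4 in the table. Fold changes below are log2 differences of FPKM + 1 from limma fitted on all 5022 tested genes, and every member passed the filter on low values. Calls required both an adjusted p (Benjamini-Hochberg) under 0.05 and a log2 fold change of 1 or more in either direction. Genes past the adjusted p alone, with no fold threshold, are counted separately.

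The 74 genes formed a ladder across the strains, with sir4∆ lowest, then WT, sir2∆ and sum1∆. Their median level was 42.1 and 47.5 FPKM in the sir4∆ libraries and 66.9 and 58.6 FPKM in the WT libraries. In sir2∆ it was 77.9 and 82.1 FPKM, and the sum1∆ libraries reached 105 and 107 FPKM. The 4 groups of library medians did not overlap. The median over all genes tested stayed between 62.5 and 68.5 FPKM in the 8 libraries. In 62 of the 74 genes the mean log2 level followed the order sir4∆, WT, sir2∆, sum1∆, as it did in 19.6% of all genes tested. In 44 of them the libraries of neighbouring groups in that order did not overlap, against 11.2% of all genes tested. Without WT replicate 2 the order held in 51 of 74. The 12 exceptions to the order were NOP1, NOP56, NOP9, DBP2, DBP5, RRP14, RRP46, UTP9, UTP10, UTP15, UTP21 and UTP22.

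**Figure D1:**
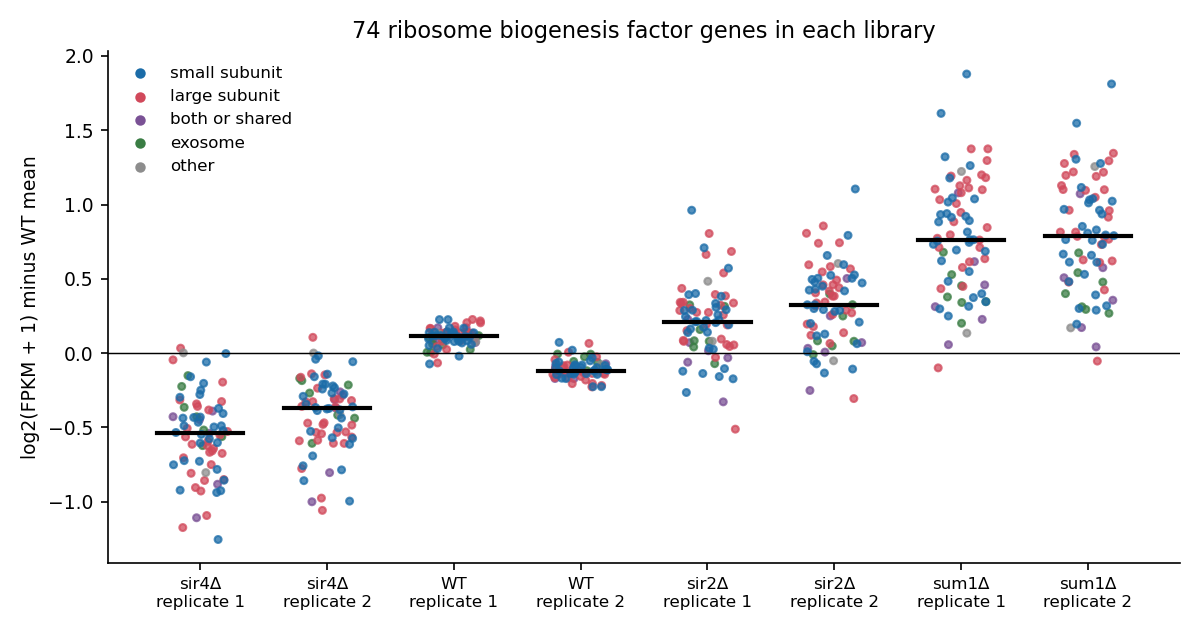
Level of each of the 74 genes in each library, as log2(FPKM + 1) minus the gene's WT mean; points are genes coloured by role and black bars are library medians. The clouds climb from sir4∆ through WT and sir2∆ to sum1∆, and WT replicate 1 sits above WT replicate 2.

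WT levels within the group ran from 13.5 FPKM for UTP20, a very large scaffold-like protein of the small subunit processome, to 4832 FPKM for NOP10, a small protein of H/ACA snoRNPs. NOP10 has a coding length of only 174 bases, so its FPKM leans heavily on the length correction. The box C/D snoRNP proteins NOP1, NOP56 and NOP58 followed at 441, 439 and 372 FPKM. The median WT level was 52.0 FPKM for small subunit factors, 65.9 FPKM for large subunit factors and 90.8 FPKM for exosome subunits, beside 63.2 FPKM over all genes tested. In the comparison of sum1∆ with WT, genes of low WT level had the larger log2 fold changes (Spearman's rho -0.56 across the 74 genes). Fold change had little relation to coding length (rho -0.015). These 2 values describe genes within the same libraries, which are not independent replicates.

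Loss of Sum1 went with the widest rise of the factor genes. Of 74 genes 23 were called higher and none lower, where 7.73% and 2.87% of all genes tested were called higher and lower. By adjusted p alone 70 were higher and none lower, against 33.6% and 32.6% of all genes tested. The median log2 fold change was 0.78, beside -0.01 over all genes tested. The exceptions were DBP2, DBP5, NOP1 and NOP10, which did not pass. Without WT replicate 2 the median was 0.67, beside 0.00 over all genes tested. Fewer members, and fewer of all genes tested, were then called higher. The calls lost were those of NOP12, RRP1, RRP8, RRP12, SPB4, UTP6, UTP7 and UTP18.

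Among small subunit factors all 31 were higher by adjusted p alone and 8 were called, beside 33.6% and 7.73% of all genes tested. Their median log2 fold change was 0.80. The largest rise of the whole group was that of NOP19, a small nucleolar protein needed to recruit later processome components. NOP19 stood at 20.4 and 18.7 FPKM in WT and at 74.6 and 71.1 FPKM in sum1∆, a log2 fold change of 1.84 (SE 0.08, limma adjusted p = 3.90e-07). The sum1∆ libraries were above all the others for this gene, with sir2∆ next and sir4∆ lowest. RRP3, a DEAD-box RNA helicase of early rRNA cleavage, stood at 27.3 and 22.3 FPKM in WT and at 77.6 and 74.1 FPKM in sum1∆ (1.58, SE 0.09). IMP4, which joins the U3 snoRNA to the precursor rRNA, rose by 1.31 on the log2 scale, and RRP36 and UTP14, which act in early cleavages, by 1.27 and 1.15. UTP6, UTP7 and UTP18 were called just past the threshold, at 1.03, 1.03 and 1.02. DIM1, the dimethylase of small subunit rRNA, and UTP20 were higher by adjusted p alone, at 0.84 and 0.58.

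Medians of the processome subcomplexes in sum1∆ are given as a description, and differences between them were not tested. The UTP-A complex, which binds the precursor first and also promotes its transcription, had a median of 0.57 over 6 genes with none called. Its members ranged from 0.22 for UTP10 and 0.29 for UTP9 to 0.92 for UTP5. The UTP-B complex had a median of 0.92 over 4 genes, from 0.31 for UTP21 to 1.03 for UTP6. UTP22 and RRP7 of the UTP-C complex were at 0.33 and 0.38. Among proteins of the U3 snoRNP, NOP1, the methyltransferase of box C/D particles, was at 0.05, while RRP9, the U3-specific protein, was at 0.95 and IMP3 at 0.80.

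Large subunit factors were higher by adjusted p alone in 27 of 28 genes, with 13 called, beside 33.6% and 7.73% of all genes tested. Their median log2 fold change was 0.97. MAK5, a DEAD-box helicase, stood at 18.6 and 15.3 FPKM in WT and at 45.3 and 44.4 FPKM in sum1∆ (1.36, SE 0.10, limma adjusted p = 1.34e-05). SPB1, an rRNA methyltransferase, stood at 27.1 and 22.3 FPKM in WT and at 65.3 and 63.7 FPKM in sum1∆ (1.36, SE 0.14). In both genes the sum1∆ libraries were above every library of the other strains. NOP4, NOP16, NOC3, RRP15 and NOP53, which act at successive stages of the pre-60S particle, rose by 1.29, 1.23, 1.20, 1.18 and 1.17. The helicase genes SPB4, DBP7 and DBP3 rose by 1.15, 1.15 and 1.09, and RRP1, RRP8 and NOP12 by 1.12, 1.10 and 1.04. The smallest values were 0.43 for RPF2, which brings in the 5S RNA particle, 0.46 for RRP17, a nuclease, and -0.08 for DBP2.

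**Figure D2:**
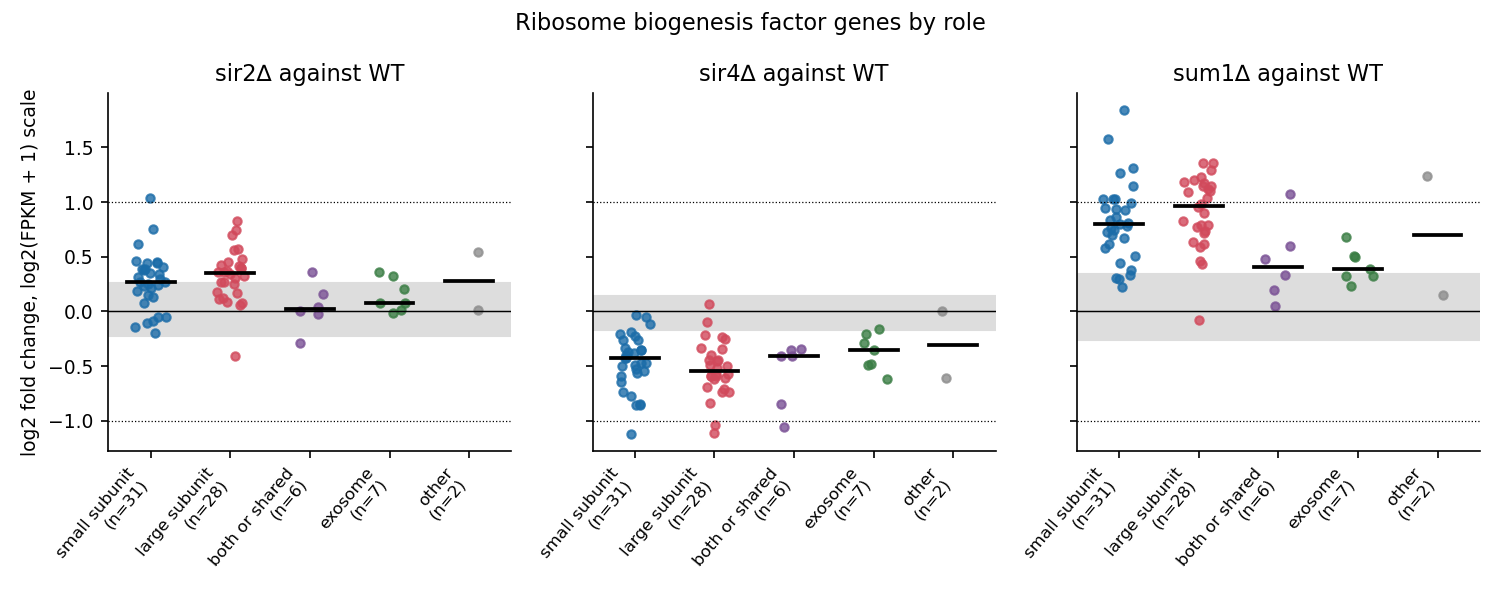
Log2 fold change of each gene against WT, by role, in the 3 deletion strains; points are genes, black bars medians, grey bands the middle 50% of all genes tested and dotted lines the fold threshold. Small and large subunit factors lie mostly above the band in sum1∆ and below it in sir4∆, and exosome genes lie closer to it.

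Shared factors and the exosome had smaller medians in sum1∆, 0.41 and 0.39, and the difference from the subunit classes was not tested. RRP12, needed for export of both subunits, was the 1 of 6 shared factors called, at 34.4 and 27.0 FPKM in WT and 65.5 and 65.2 FPKM in sum1∆ (1.08, SE 0.12). RRP5, a large protein that works on both precursors, was at 0.60. By adjusted p alone 33.6% of all genes tested were higher in sum1∆, and 7.73% were called higher. The 7 exosome genes, whose products trim precursor rRNA and degrade many other RNAs, were all higher by adjusted p alone. None was called. Of the others, NOP13, an RNA-binding nucleolar protein, rose by 1.24. DBP5, a helicase of mRNA export, was at 0.15 and, like DBP2, which acts in mRNA metabolism as well as on rRNA, did not pass.

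In the strain without Sir4 the factor genes were lower than in WT. By adjusted p alone 62 of 74 were lower and none higher, against 20.9% and 16.8% of all genes tested. With the fold threshold 4 were called lower, against 0.737% of all genes tested, and none higher, against 0.617%. The median log2 fold change was -0.47, beside -0.01 over all genes tested. In 67 genes both sir4∆ libraries lay below both WT libraries, against 36.2% of all genes tested. Without WT replicate 1 fewer members, and fewer of all genes tested, were lower by either threshold. The median of the members was then -0.32, beside -0.01 over all genes tested. Without sir4∆ replicate 1 the members had a median of -0.37 and fewer of them were called.

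The 4 genes called lower in sir4∆ were DIM1, RRP1, RRP5 and DBP10. DIM1 stood at 113 and 92.6 FPKM in WT and at 42.4 and 50.9 FPKM in sir4∆ (log2 fold change -1.12, SE 0.11, limma adjusted p = 0.000743). RRP1, which acts on the large subunit precursor, stood at 72.8 and 52.9 FPKM in WT and at 27.0 and 29.3 FPKM in sir4∆ (-1.12, SE 0.13). For both genes every sir4∆ library was below every WT library, and the WT libraries were themselves well apart. RRP5 stood at 45.5 and 35.7 FPKM in WT and at 18.2 and 19.7 FPKM in sir4∆ (-1.05, SE 0.11). DBP10, a helicase of the pre-60S particle, was at -1.03. Below them came UTP10 (-0.86), UTP20 (-0.85), UTP21 (-0.85), RRP12 (-0.84) and NOC2 (-0.84), which did not reach the fold threshold.

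Small subunit factors had a median of -0.43 in sir4∆ with 24 of 31 lower by adjusted p alone, and large subunit factors a median of -0.54 with 25 of 28. Exosome genes had a median of -0.35 with 6 of 7 lower, and 20.9% of all genes tested were lower by adjusted p alone. MAK5, SPB1, IMP4 and NOP10 were lower by adjusted p alone, at -0.59, -0.44, -0.43 and -0.41. DBP2 was at -0.22, which also passed. Other genes had values near WT in sir4∆. RRP14, a factor of both precursors counted here with the large subunit, stood at 65.4 and 66.0 FPKM in WT and at 67.3 and 70.8 FPKM in sir4∆ (0.07, adjusted p = 0.313 with limma). RRP3, UTP22, RRP15 and RRP36 were at -0.05, -0.03, -0.09 and -0.11 and did not pass. RRP3 therefore had the second largest log2 fold change of the group in sum1∆ and one of the smallest in sir4∆. UTP10 and UTP21 showed the reverse, with values of -0.86 and -0.85 in sir4∆ beside 0.22 and 0.31 in sum1∆. Both comparisons use the same WT libraries.

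**Figure D3:**
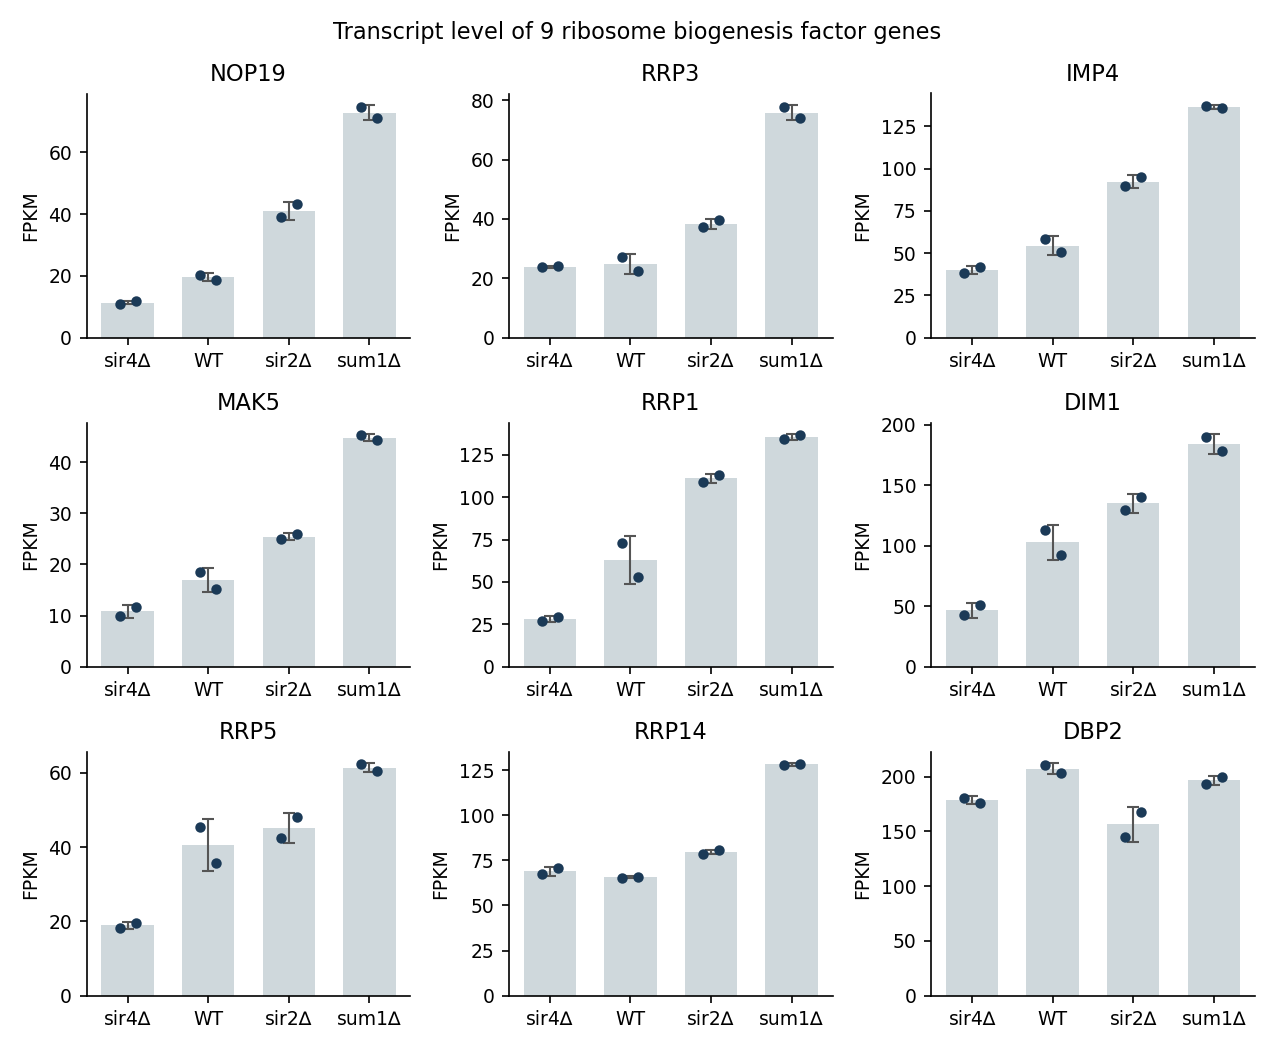
FPKM of 9 factor genes in sir4∆, WT, sir2∆ and sum1∆; bars are means of 2 libraries, points the libraries and error bars the SD. NOP19, IMP4, MAK5, RRP1 and DIM1 climb across the 4 strains, RRP3 and RRP14 are level between sir4∆ and WT, and DBP2 is not highest in sum1∆.

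The comparison of sir2∆ with WT gave a smaller shift in the direction seen in sum1∆. By adjusted p alone 41 of 74 genes were higher and 3 lower, against 28.9% and 29.2% of all genes tested. Both sir2∆ libraries lay above both WT libraries in 49 genes, against 39.6% of all genes tested, and below both in 4, against 40.5%. The median log2 fold change was 0.27, and 1 gene was called, against 4.9% of all genes called higher and 0.717% called lower. That gene was NOP19, at 39.0 and 43.2 FPKM in sir2∆ against 20.4 and 18.7 FPKM in WT (log2 fold change 1.03, SE 0.08, limma adjusted p = 2.08e-05). The call of NOP19 was lost without WT replicate 2 (0.97) or sir2∆ replicate 2 (0.96), with a pseudocount of 5 FPKM (0.91) and with quantile normalization (0.91). Fewer members then passed the adjusted p when either of these libraries was left out. The median of the 74 genes was 0.17 without WT replicate 2 and 0.21 without sir2∆ replicate 2. Over all genes tested it was -0.01 in both cases.

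Large subunit factors were higher in 19 of 28 genes by adjusted p alone in sir2∆, beside 28.9% of all genes tested, with a median of 0.35. RRP1 stood at 109 and 113 FPKM in sir2∆, a log2 fold change of 0.83, and NOP16 and RRP8 were at 0.75 and 0.70. MAK5 and SPB1 were at 0.57 and 0.37 and passed the adjusted p, while NOP7 and NOP2 were at 0.08 and 0.06 and did not. RRP1 was 0.29 higher in sum1∆ than in sir2∆ on the log2 scale, a difference that did not pass (SE 0.13, limma adjusted p = 0.109). Small subunit factors were higher in 17 of 31, with a median of 0.27, led after NOP19 by IMP4 (0.75) and RRP3 (0.61). DIM1 was higher by adjusted p alone (0.39), and UTP20 (0.23) did not pass. The 3 genes lower in sir2∆ by adjusted p alone were DBP2 (-0.41), NOP1 (-0.29) and UTP15 (-0.20). DBP2 stood at 145 and 167 FPKM in sir2∆ and at 211 and 204 FPKM in WT. The UTP-A genes UTP9 and UTP10 were at -0.10 and -0.09, and UTP21 of UTP-B was at -0.14, none of which passed. Exosome genes had a median of 0.08, with RRP42, RRP45 and RRP43 higher by adjusted p alone at 0.36, 0.33 and 0.20. These are 3 of the 7 exosome genes, beside 28.9% of all genes tested.

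The direct comparison of sum1∆ with sir2∆, which uses no WT library, found all 74 genes higher in both sum1∆ libraries than in both sir2∆ libraries, as were 44% of all genes tested. By adjusted p alone 66 were higher and none lower, against 24.2% and 16.7% of all genes tested. The median log2 difference was 0.53, and none reached the call, against 0.677% of all genes tested called higher and 1.73% called lower. The count of 0 from limma stands beside that 66 at the adjusted p alone, and SPB1 (0.99) and RRP3 (0.97) were just under the fold threshold. Without sir2∆ replicate 2, 2 genes were called.

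Between the extremes of the ladder, sum1∆ against sir4∆, 51 of 74 genes were called higher, against 12.7% of all genes tested, and none lower, against 4.9%. By adjusted p alone 72 were higher and none lower, against 36.3% and 37.1% of all genes tested. Both sum1∆ libraries lay below both sir4∆ libraries in no member, against 44.9% of all genes tested. The median log2 difference was 1.32. NOP19 differed most (2.58), from 10.96 and 11.7 FPKM in sir4∆ to 74.6 and 71.1 FPKM in sum1∆, followed by RRP1 (2.23). DBP2 (0.14) and DBP5 (0.15) differed least and were the only members not to pass the adjusted p. In sir2∆ against sir4∆ 19 genes were called higher, against 8.74% of all genes tested, and none lower, against 3.23%. By adjusted p alone 68 were higher and 1, DBP2, lower, against 36.0% and 34.8% of all genes tested. DBP2 no longer passed with the replicate block, with only these strains fitted, or without sir2∆ replicate 1 or any 1 of the sir4∆ and sum1∆ libraries. The median log2 difference was 0.73. The called count was 12 with a pseudocount of 5 FPKM and 11 with quantile normalization. Over all genes tested 371 and 356 were then called higher, beside 439 without these settings.

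Other genes of the pathway were followed with lists drawn up by symbol. For comparison, 33.6% of all genes tested were higher in sum1∆ and 20.9% lower in sir4∆ by adjusted p alone. In sir2∆ 28.9% were higher and 29.2% lower. The called shares were 7.73% higher in sum1∆ and 0.737% lower in sir4∆. Of 41 other small subunit factors 39 were higher in sum1∆ by adjusted p alone and 13 were called, with a median of 0.82. LCP5, BUD21, SAS10 and MPP10, all of the processome, rose by 1.31, 1.23, 1.19 and 1.19. In sir4∆ 34 of the 41 were lower by adjusted p alone, with a median of -0.56 and none called. In sir2∆ 21 were higher and 1 lower, with a median of 0.25. Of 43 other large subunit factors 40 were higher in sum1∆, with 6 called (JJJ1 at 1.13 and MAK16 at 1.11 among them) and a median of 0.61. In sir4∆ 39 of 43 were lower, with a median of -0.64, and URB2, a partner of early pre-60S particles, was called (-1.06). In sir2∆ 12 of 43 were higher and 3 lower, beside 28.9% and 29.2% of all genes tested, with a median of 0.12. Without WT replicate 2 that median was -0.0048. The 11 other snoRNP core and assembly proteins do not include the members NOP1, NOP10, NOP56 and NOP58. They had a median of 0.13 in sum1∆ and -0.29 in sir4∆, and SHQ1, an H/ACA assembly chaperone, was called higher in sum1∆ (1.15). The median of the 11 in sir2∆ was -0.10, with 3 higher and 4 lower by adjusted p alone. This list, without those members, did not follow the order of the 74 genes.

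RNA polymerase I and its initiation factors (16 genes) had a median of 0.37 in sum1∆ with 11 higher and 1 lower by adjusted p alone, and -0.27 in sir4∆ with 9 lower and 1 higher. RNA polymerase III genes (18) were at 0.47 in sum1∆, with 11 higher and 4 lower, and -0.13 in sir4∆, with 6 lower. By adjusted p alone 33.6% of all genes tested were higher and 32.6% lower in sum1∆, and 16.8% and 20.9% in sir4∆. No gene of either list was called against WT. The called shares of all genes tested were 7.73% higher and 2.87% lower in sum1∆, and 0.617% and 0.737% in sir4∆. The 16 regulators of the regulon found by symbol, such as SFP1 and SCH9, had a median of -0.20 in sum1∆, with 3 higher and 9 lower, and 0.02 in sir4∆. Cytosolic ribosomal protein genes did not share the pattern. Of 51, 49 were lower in sum1∆ and 48 in sir2∆ by adjusted p alone, beside 32.6% and 29.2% of all genes tested. The medians were -0.31 in each. With quantile normalization these medians were -0.04 and -0.13, beside -0.10 and -0.08 over all genes. Ribosomal protein genes are among the highest, with WT library medians of 4701 and 4490 FPKM. That scaling gives all libraries the same set of values, so it can level out a joint fall of such genes. It therefore cannot decide whether ribosomal protein genes were lower. In sir4∆ their median was -0.08.

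**Figure D4:**
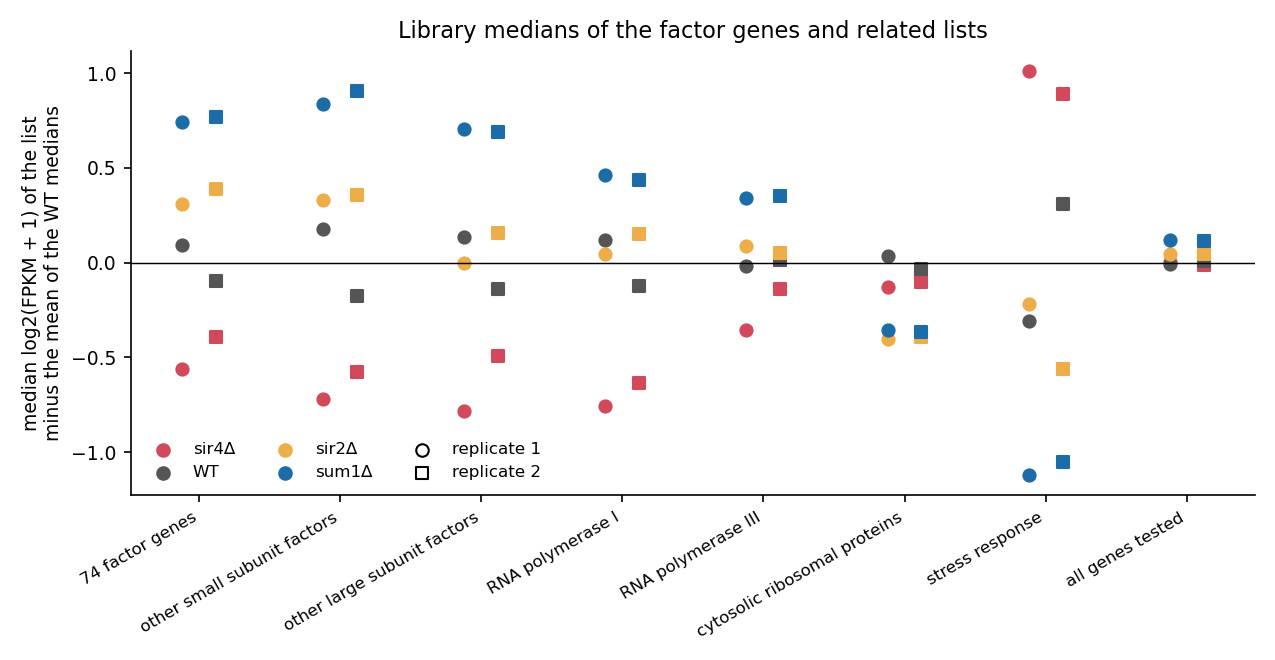
Median log2(FPKM + 1) of each list in each library, relative to the mean of the WT medians; colours are strains, circles replicate 1 and squares replicate 2. The 74 factor genes and the other small subunit factors climb from sir4∆ to sum1∆, WT and sir2∆ overlap for the other large subunit factors, and the stress response list is highest in sir4∆ and lowest in sum1∆.

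Stress response genes were on balance higher in sir4∆ and lower in sum1∆, while in sir2∆ they were split. The median level of 20 stress genes was 440 and 405 FPKM in sir4∆, and 176 and 270 FPKM in WT. The sir2∆ libraries were at 189 and 148 FPKM, and those of sum1∆ at 99.6 and 105 FPKM. In sum1∆ 9 of the 20 were called lower and 1, HSP78, higher, beside 2.87% and 7.73% of all genes tested. Of the 20, 13 were lower and 4 higher by adjusted p alone, beside 32.6% and 33.6% of all genes tested. In sir4∆ 4 were called higher and none lower, beside 0.617% and 0.737% of all genes tested. By adjusted p alone 11 were higher and 3 lower there, beside 16.8% and 20.9%. In sir2∆ none was called, beside 4.9% of all genes tested called higher and 0.717% called lower. By adjusted p alone 6 of the 20 were higher and 8 lower, beside 28.9% and 29.2% of all genes tested. The median log2 fold change in sir2∆ was -0.07. Replicates also differed within groups. WT replicate 1 was above WT replicate 2 in 70 of 74 factor genes, with a median log2 difference of 0.23, and had the lower stress median. Replicate 1 was above replicate 2 in only 6 of 74 genes in sir2∆ and 11 in sir4∆, and there too the library with higher factor genes had the lower stress median. In sum1∆ replicate 1 was above replicate 2 in 35 of 74 genes, and replicate 2 had both the higher factor median and the higher stress median. Over all genes tested WT replicate 1 was higher in 50.9%. The part of stress gene levels in the results was not tested.

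Estimated depth also moved with the groups. Both sum1∆ libraries were deep (21.7 and 26.3 M reads) and both sir4∆ libraries shallow (10.6 and 11.5 M), while WT (21.7 and 11.9 M) and sir2∆ (10.1 and 21.2 M) held one of each. Within every strain the library with more reads also had the higher factor median. These medians were 66.9 against 58.6 FPKM in WT and 82.1 against 77.9 FPKM in sir2∆. They were 47.5 against 42.1 FPKM in sir4∆ and 107 against 105 FPKM in sum1∆. The part of depth in these replicate differences was not tested. With depth class as a term in the fit, the median of the factor genes was 0.68 in sum1∆ and -0.36 in sir4∆. The called counts were then 16 higher and 1 lower, and 67 and 51 passed the adjusted p alone. Over all genes tested, 353 were called higher in sum1∆ and 26 lower in sir4∆, beside 388 and 37 without this term. By adjusted p alone 1583 and 840 of all genes tested passed, beside 1689 and 1051 without it. Against the WT library of the same depth class alone, the medians were 0.67 for sum1∆ and -0.32 for sir4∆. Each of these last values rests on 1 WT library. The part of depth in the results cannot be fully told apart from that of the strain.

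The 74 genes lie on all 6 chromosomes, from 5 on chromosome A to 20 on chromosome F, and share no single neighbourhood. Only 1 pair, NOP19 and DBP8, are direct neighbours, and NMD3, an export factor of the large subunit, flanks NOP19 on its other side. DBP8 and NMD3 both had a log2 fold change of 0.74 in sum1∆, beside 1.84 for NOP19. The 145 tested genes next to a member had a median of 0.07 in sum1∆, -0.07 in sir4∆ and 0.00 in sir2∆. Of these 145, 13 were called higher and 2 lower in sum1∆, beside 7.73% and 2.87% of all genes tested. KLLA0C14586g, beside RRP3, was among the 13, at 1.13, and was picked out after its value was seen. The libraries do not keep strand, so reads of overlapping neighbours cannot be told apart.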

How the data were processed

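RNA of 8 libraries was read as single 50-base reads with a kit that does not keep strand, per the labels' protocols. The deposited values are FPKM, made with TopHat2 2.0.10 and Cuffnorm 2.2.1 per the submitters' processing notes; their genome build is not given in the sources used. All 5076 identifiers matched locus tags of the RefSeq table, which gave symbols to 3959. Its lengths are coding lengths.

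The filter kept 5022 genes averaging 1 FPKM or more over the 8 libraries. Limma 3.58.1 in R 4.3.3 was fitted to log2(FPKM + 1) with an intensity trend, all 4 groups sharing the spread (degrees of freedom: residual 4, prior 4.02). The 1 FPKM added before taking log2 understates changes of low genes. The fit was tested on simulated data. Python 3.11.15, pandas 2.3.3 and numpy 2.4.6 were used for counts.

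The spacing of low FPKM values gave an estimate of depth, assuming fragments of 200 ± 80 bases and coding lengths over 600 bases. The depth kept was the one that best made values of up to 100 reads whole within 0.1. The shares of whole values are therefore no independent check. They were 57.4% to 80.0% up to 100 reads and 96.0% to 100% up to 30 reads. Few genes had up to 30 reads in sir2∆ replicate 2 and both sum1∆ libraries (3, 4 and 2). A library was deep when above the midpoint of the estimates. Members, lists, subcomplexes and the depth classes were chosen with earlier results of these data known. For each mutant against WT the text names called members, the 3 highest and 3 lowest of each subunit class, RRP3, MAK5, SPB1, IMP4, RRP1 and DIM1, those of highest and lowest WT level, and examples of the called genes of the related lists; other members are named to show their complex, after their values were seen. There were 18 alternatives, covering pseudocount, filter, scaling, groups fitted, replicate number, depth, trend and single libraries.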

Additional observations from a re-analysis of the deposited data

How the results depend on the processing

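The members' medians kept their direction in all 6 comparisons under all 18 alternatives. Some of these leave the members' fold changes as they are, so they could not turn a median. They are the filters, the replicate block, no trend, fitting only the 2 groups compared and leaving out libraries of other strains. The order of levels held in 51 to 65 of 74 genes when single libraries were left out and in 60 to 62 otherwise, 61 with depth class. The replicate numbers pair nothing by label, and same-numbered libraries had deviations correlated between -0.251 and 0.025; with the replicate block the called counts were 1, 4 and 23 in sir2∆, sir4∆ and sum1∆ against WT, as without it, and 0 rather than 1 gene was lower by adjusted p alone in sir2∆ against sir4∆, as also when only the 2 groups compared were fitted.

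With a pseudocount of 5 FPKM and with quantile normalization 0 genes were called higher in sir2∆, 2 lower in sir4∆, and 12 and 11 higher in sir2∆ against sir4∆. Over all genes tested 197 and 194 were then called higher in sir2∆, beside 246 without these settings. In sir4∆ 26 and 27 of all genes tested were called lower, beside 37. A pseudocount of 0.1 FPKM gave 1 call in sum1∆ against sir2∆. Quantile normalization gave medians of 1.18 for sum1∆ against sir4∆, where it moved all genes by -0.12, and 0.60 for sir2∆ against sir4∆. Depth class as a term gave 1 gene lower in sir4∆ and medians of -0.36 in sir4∆, 0.68 in sum1∆, 0.40 for sum1∆ against sir2∆, 1.11 for sum1∆ against sir4∆ and 0.63 for sir2∆ against sir4∆. The causes were not tested.

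Leaving out 1 library at a time, sir2∆ against WT had 0 to 2 genes called higher, 15 to 52 higher and 1 to 4 lower by adjusted p alone and a median of 0.17 to 0.37. In sir4∆ 0 to 5 were called lower, 39 to 64 were lower by adjusted p alone and the median was -0.59 to -0.32. In sum1∆ 15 to 30 were called, with a median of 0.67 to 0.91. In sum1∆ against sir2∆ 0 to 2 were called, with a median of 0.42 to 0.57, and in sir2∆ against sir4∆ 0 to 1 was lower by adjusted p alone. Where a group keeps 1 library, that library is assumed to vary like the other groups. Counts over all genes tested also changed between these fits, so a changed count is not particular to the members.

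Among named genes, none of them called, the sign turned in sir2∆ for NOP10 (-0.089 without WT replicate 2, -0.031 without sir2∆ replicate 2, up to 0.090 without others), NOP2 (-0.081 without WT replicate 2, up to 0.19), NOP7 (-0.067 and -0.0285 without the same libraries as NOP10, up to 0.22) and UTP20 (-0.13 with quantile normalization). In sir4∆ it turned for RRP3 (0.0401 with depth class, 0.088 without WT replicate 1, down to -0.19) and UTP22 (0.075 and 0.069, down to -0.13).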
